A study of Mus musculus with 18 samples.

Results

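The Sprouty, Spred and dual-specificity phosphatase genes are feedback inhibitors of receptor tyrosine kinase and ERK signalling. Spry1, Spry2, Spry4, Spred1, Spred2, Spred3, Dusp4, Dusp5, Dusp6 and Dusp1 were taken by symbol, as the 10 rows of the count table whose Ensembl identifier carries these names, of 49671 genes in all. Mouse embryonic stem (ES) cells were grown embedded in growth factor depleted matrigel, a basement membrane gel, in N2B27 medium, and their poly(A) RNA was sequenced in 18 samples, 3 to a group. The E14 ES cells, which are wild-type and were at passage 20, were cultured for 48 h in 1 of 4 ways: with the solvent DMSO, with 3 µM of the Gsk3 inhibitor CHIR99021 (CH), with 3 µM CHIR99021 and 0.4 µM of the Mek inhibitor PD0325901 (2i), or with Activin A (20 ng/ml) together with Fgf2 (12 ng/ml), here Fgf2/Activin. Esrrb fl/fl ES cells at passage 25, a line labelled as derived from Acr-EGFP transgenic mice and expressing a tamoxifen-inducible Cre, were cultured for 24 h in 3 µM CHIR99021. They had been kept for 1 day before that either with 4-hydroxytamoxifen (4OHT), which deletes Esrrb (Esrrb null cells), or without it (Esrrb floxed cells). All lines had been maintained in 2i with Lif beforehand, so the 2i samples kept the Mek inhibitor and every other group had been taken off it for the culture time. Each genotype is represented by 1 line, 4OHT without a floxed allele was not analysed here, and neither was the Mek inhibitor without CHIR99021.

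ERK is activated when a growth factor such as Fgf4 binds its receptor, through Ras, Raf and Mek. Sprouty and Spred proteins act upstream, on Ras and Raf, whereas the Dusp phosphatases remove the phosphates from ERK and related kinases, Dusp6 in the cytoplasm and Dusp4, Dusp5 and Dusp1 in the nucleus. Several of these genes are themselves switched on by ERK, so that their transcripts are used as readouts of the pathway, and in ES cells ERK activity promotes exit from the naive state that 2i maintains. Esrrb, an orphan nuclear receptor, is a naive factor whose gene is held back by Tcf3 and released when Gsk3 is inhibited.

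The promoters of 4 of these genes are shown because their transcripts behaved differently. Dusp6 was lower with the Mek inhibitor and passed no threshold with CH, Spry2 was higher in CH, Dusp5 was lower in CH, and Dusp1 passed both thresholds of the test in no comparison. Windows of 300 bases from RefSeq (GRCm38.p6), 250 before and 50 after the gene start, were searched for 8 of the 10 genes. The 250 bases before the start are printed 5′ to 3′ on the gene's strand. Capitals mark matches to the serum response element (SRE) and to TGACG, the half-site of the cAMP response element, on either strand.
Dusp6, chr10:99262981-99263230, + strand: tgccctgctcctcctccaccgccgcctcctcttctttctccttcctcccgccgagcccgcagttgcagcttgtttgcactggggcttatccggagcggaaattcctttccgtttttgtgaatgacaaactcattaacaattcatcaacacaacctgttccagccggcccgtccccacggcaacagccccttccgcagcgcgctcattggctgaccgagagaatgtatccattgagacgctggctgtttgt
Spry2, chr14:105896820-105897069, - strand: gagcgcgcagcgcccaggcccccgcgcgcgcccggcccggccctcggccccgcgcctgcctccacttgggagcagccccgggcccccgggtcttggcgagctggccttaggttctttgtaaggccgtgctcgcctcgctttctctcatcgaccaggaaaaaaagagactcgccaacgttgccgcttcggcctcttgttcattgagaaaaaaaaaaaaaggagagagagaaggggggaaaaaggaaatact
Dusp5, chr19:53528895-53529144, + strand: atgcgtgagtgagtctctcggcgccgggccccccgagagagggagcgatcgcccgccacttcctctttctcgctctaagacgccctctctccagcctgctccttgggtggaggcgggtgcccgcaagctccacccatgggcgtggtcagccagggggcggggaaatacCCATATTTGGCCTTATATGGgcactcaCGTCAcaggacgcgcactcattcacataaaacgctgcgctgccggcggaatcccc
Dusp1, chr17:26508473-26508722, - strand: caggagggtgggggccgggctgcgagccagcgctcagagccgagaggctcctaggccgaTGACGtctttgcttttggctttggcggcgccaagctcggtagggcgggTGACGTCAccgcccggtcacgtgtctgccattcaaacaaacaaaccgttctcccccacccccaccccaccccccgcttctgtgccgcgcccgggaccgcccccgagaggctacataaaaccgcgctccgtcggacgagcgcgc

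The windows of Dusp6 and Spry2 held none of the 5 motifs searched on both strands. Dusp5 held 2 adjoining serum response elements, beginning 82 and 72 bases before its start, an element found in 1.63% of the 32851 RefSeq windows searched. A TGACG half-site lay 55 bases before the start of Dusp5 on the other strand, clear of both. Dusp1 held 3 half-sites, of which the pair beginning 143 and 140 bases before its start overlaps as 1 palindrome, and 20.8% of the windows searched held at least 1. Spred2 also held a half-site. The ETS motif CCGGAAG (8.86% of windows), the Esrrb half-site AAGGTCA (4.72%) and the TCF motif CTTTGAT (3.73%) were in none of the 8 windows. They were searched as exact letters near the gene start alone, so their absence does not show that a gene is unbound. From published chromatin immunoprecipitation data, the authors report that Esrrb binds Spry2 and take Spry2 as its direct target. Binding was not examined here. Dusp4 had no window, and Spry4 lies on chromosome 18, whose windows were left out of the search.

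Libraries held 25388139 to 37158661 counted reads in wild-type cells and 19915222 to 20140699 in Esrrb fl/fl cells. Levels are given as CPM, counts per 1000000 counted reads, scaled by trimmed mean of M values within each of these 2 sets of samples. Esrrb had 1211, 1333 and 1250 counts in Esrrb null and 2680, 2146 and 2109 in Esrrb floxed samples, a log2 difference of -0.99, and these counts cover the whole gene, not the deleted stretch alone. Axin2, a target of β-catenin, was higher in CH than in DMSO by 4.64 (log2) and differed by -0.21 between 2i and CH (adjusted p = 0.684, edgeR). The 6 ES cell markers examined were detected in every group. The labels do not say that replicates were separate cultures, so p-values measure the spread between these samples, which may be technical. Replicate 1 stood apart in all 6 groups: over the 11044 genes averaging 100 counts or more, its counts differed from those of replicates 2 and 3 by a chi-square of 15.1 to 88.3 per gene, against 1.55 to 11 between replicates 2 and 3. Values from replicates 2 and 3 alone, chosen after seeing the data, are given where a call changed. Replicate 1 was the highest of its group for Spry1 and Dusp1 in all 4 wild-type cultures and the lowest for Spred3 in all 6 groups.

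With the Mek inhibitor on top of CH, Spry4, Dusp4 and Dusp6 were lower, and no gene of the family was higher. Calls rest on edgeR's quasi-likelihood test and needed a Benjamini-Hochberg adjusted p below 0.01 over all genes tested and a log2 fold change beyond 1 in either direction. Thus 3 of 10 genes were called lower between 2i and CH, where 1.67% of the 16413 genes tested were, and 0 were called higher, where 0.317% were. With CH against DMSO, Spry2 was higher (7.51% of genes tested were) while Spred3, Dusp4 and Dusp5 were lower (10.2% were). After loss of Esrrb in CH, Spry2 and Spry4 were lower (3.87% of 14893 genes tested) and Spred3, Dusp4 and Dusp5 were higher (12.8%). These fits held no term for the replicate number. With that term, Spred3 was also called lower between 2i and CH, and Spry1 between CH and DMSO. The median log2 fold change of the 10 genes was -0.77 between 2i and CH, -0.12 between CH and DMSO and 0.59 after Esrrb loss, and that of all genes tested was 0 in each.

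**Figure D1:**
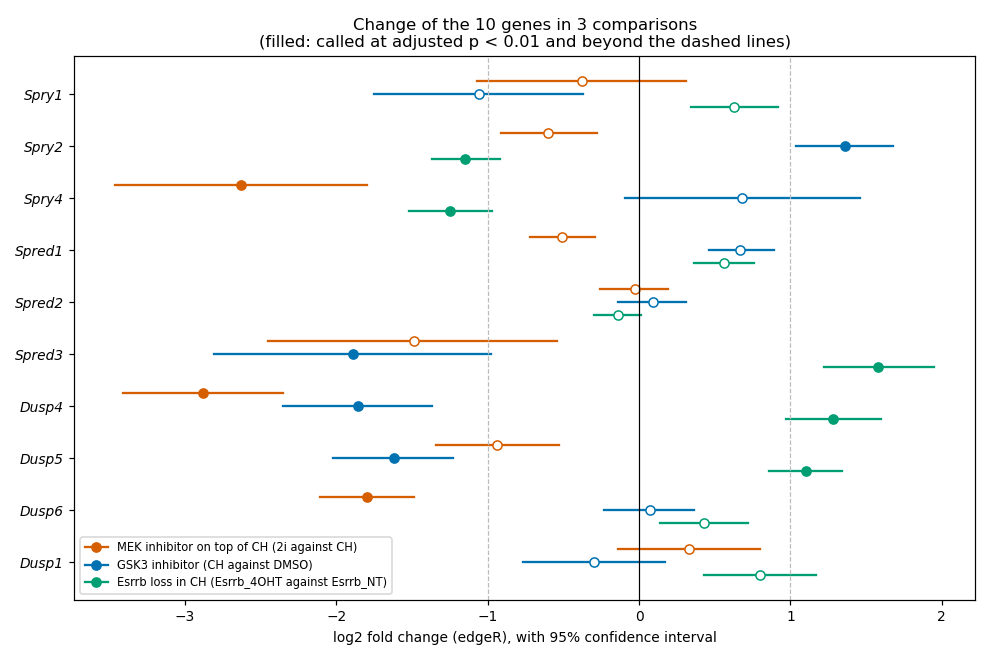
Log2 fold change (x axis) of each of the 10 genes (y axis) with the Mek inhibitor on top of CH (orange), with the Gsk3 inhibitor against DMSO (blue) and with Esrrb loss in CH (green), with 95% confidence intervals from edgeR. Filled points passed both thresholds, and Spry4, Dusp4 and Dusp6 are the filled orange points, at -2.63, -2.88 and -1.80.

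Among the Sproutys, Spry4 (ENSMUSG00000024427) was called lower with the Mek inhibitor and after Esrrb loss. It inhibits the path from growth factor receptors to Raf. Its level was 31.3, 36.9 and 37.7 CPM in the CH samples and 2.51, 7.08 and 7.41 CPM in the 2i samples, replicates 1 to 3 in order here and below. It was 13.8, 19.8 and 32.5 CPM in DMSO and 28.4, 27.1 and 27.5 CPM in Fgf2/Activin. Every 2i sample lay below every sample of the other 3 cultures. The fall from CH to 2i was 6.2-fold (log2 fold change -2.63, SE 0.377, adjusted p = 0.00198, edgeR), and with the 6 samples of these 2 groups alone in the fit the adjusted p was 0.017, which did not pass. CH and DMSO overlapped and differed by 0.68 on the log2 scale, with a 95% interval from -0.09 to 1.46 (adjusted p = 0.142). In CH without Esrrb, Spry4 read 22.3, 32.0 and 30.4 CPM, against 68.1, 64.8 and 68.2 CPM in Esrrb floxed cells. These groups did not overlap, and the level fell 2.37-fold (log2 fold change -1.25, SE 0.12, adjusted p = 4.82e-05).

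Spry2 (ENSMUSG00000022114, chr14:105891947-105896819, - strand), which restrains Ras activation downstream of the Fgf receptor, was called higher with the Gsk3 inhibitor and lower after Esrrb loss. Positions are those of the whole gene in GRCm38. Its samples held 30.1, 40.8 and 45.3 CPM in DMSO and 84.1, 104 and 109 CPM in CH. The 2i samples, at 59.0, 68.0 and 69.6 CPM, lay between these groups without touching either. Spry2 rose 2.56-fold from DMSO to CH (log2 fold change 1.36, SE 0.145, adjusted p = 2.99e-05). Between 2i and CH the difference was -0.60 on the log2 scale (95% interval -0.91 to -0.28, adjusted p = 0.0282), and between 2i and DMSO it was 0.76 (adjusted p = 0.00117, under the minimum fold). Fgf2/Activin samples read 36.1, 37.4 and 36.8 CPM, within the range of DMSO. Esrrb null cells in CH held 28.0, 32.8 and 30.2 CPM, all below the 76.4, 62.4 and 62.7 CPM of Esrrb floxed cells. This fall was 2.21-fold (log2 fold change -1.15, SE 0.097, adjusted p = 2.56e-05). From replicates 2 and 3 alone it was -0.99 (adjusted p = 4.81e-13, edgeR), just under the minimum fold.

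Spry1 (ENSMUSG00000037211, chr3:37639947-37644598, + strand), the third Sprouty, was highest in DMSO and Fgf2/Activin. It read 63.1, 34.1 and 30.8 CPM in DMSO and 24.5, 18.8 and 18.04 CPM in CH, groups that did not overlap, with replicate 1 of DMSO standing far above the others. The log2 difference between CH and DMSO was -1.06 (SE 0.312, adjusted p = 0.0178). A block for the replicate number gave -1.01 with an adjusted p of 6.31e-05, which passed both thresholds, as it did in DESeq2 (-1.07, adjusted p = 0.00315). The 2i samples, at 18.5, 14.2 and 14.5 CPM, overlapped those of CH, and this difference was -0.38 (95% interval -1.07 to 0.31, adjusted p = 0.6). After Esrrb loss the level was 15.2 to 20 CPM against 10.5 to 12.2 CPM, a log2 difference of 0.63 (adjusted p = 0.00273) that stayed under the minimum fold. An annotated gene on the opposite strand, Gm42922, covers 24.43% of the exon length of Spry1, and the authors counted without regard to strand. Spry3, the remaining Sprouty, had no count in any sample.

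**Figure D2:**
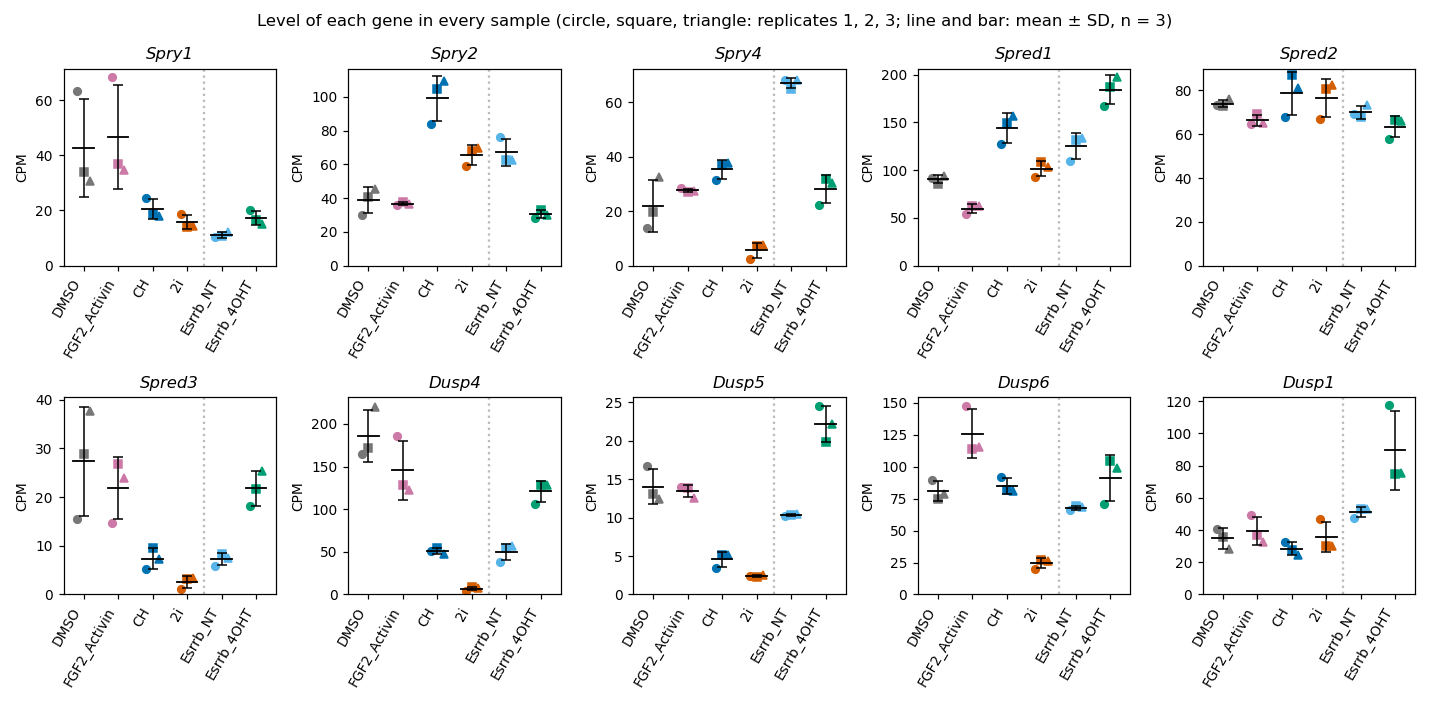
Level of each of the 10 genes in CPM (y axes, each starting at 0) in all 18 samples by group, with circles, squares and triangles for replicates 1, 2 and 3 and a line and bar for mean ± SD (n = 3). The dotted line parts wild-type samples from Esrrb floxed (Esrrb_NT) and Esrrb null (Esrrb_4OHT) samples, and the 2i samples of Spry4, Dusp4 and Dusp6 lie below all the others, the highest at 7.41, 8.35 and 26.9 CPM.

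The Spreds, membrane-bound relatives of the Sproutys that bind Ras and neurofibromin, included no gene called between 2i and CH. Spred3 (ENSMUSG00000037239, chr7:29158829-29170411, - strand) had the largest difference of the 3 there and did not pass the adjusted p. It held 5.25, 9.58 and 7.20 CPM in CH, from 154 to 293 counts, and 1.18, 3.27 and 3.31 CPM in 2i, from 34 to 111 counts. The 2 groups did not overlap, and the log2 fold change was -1.49 (SE 0.432, adjusted p = 0.0657). The call depended on the test, since the replicate block gave -1.55 (adjusted p = 0.000341) and DESeq2 gave -1.50 (adjusted p = 0.0072), both past the thresholds, as were replicates 2 and 3 alone in edgeR (-1.36, adjusted p = 5.89e-05).

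Spred3 was higher still in DMSO, at 15.5, 28.9 and 37.7 CPM, and fell 3.72-fold from there to CH (log2 fold change -1.89, SE 0.416, adjusted p = 0.00367). That call was lost without DMSO replicate 2, DMSO replicate 3, CH replicate 1 or CH replicate 3, at -1.85, -1.59, -1.70 and -1.87 with adjusted p of 0.0121, 0.0162, 0.0138 and 0.0165 (edgeR). Esrrb null cells in CH held 18.3, 21.7 and 25.4 CPM against 5.95, 8.30 and 7.55 CPM in Esrrb floxed cells. All null samples lay above all floxed samples, and Spred3 rose 2.99-fold (log2 fold change 1.58, SE 0.16, adjusted p = 6.38e-05).

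Spred1 (ENSMUSG00000027351, chr2:117121374-117182279, + strand) was called between CH and Fgf2/Activin and in no other comparison. It ranged from 86.0 to 93.7 CPM in DMSO, from 127 to 157 CPM in CH and from 92.7 to 108 CPM in 2i, so that CH lay above both. Neither step passed the minimum fold, at 0.67 from DMSO to CH (adjusted p = 0.000241) and -0.51 from CH to 2i (adjusted p = 0.00973). In Fgf2/Activin it read 53.9, 62.7 and 62.8 CPM, all below the other cultures, and CH exceeded it by 1.27 (SE 0.098, adjusted p = 2.76e-06). After Esrrb loss it was 168 to 198 CPM against 110 to 134 CPM, a log2 difference of 0.56 (adjusted p = 0.000729). Spred2 (ENSMUSG00000045671, chr11:19924375-20024026, + strand), called in none of the 7 comparisons, lay between 57.9 and 86.8 CPM in all 18 samples. Its log2 differences were -0.03 between 2i and CH (95% interval -0.26 to 0.19), 0.09 between CH and DMSO (-0.14 to 0.31) and -0.14 after Esrrb loss (-0.30 to 0.01).

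Dusp4 (ENSMUSG00000031530, chr8:34807297-34819894, + strand), a nuclear phosphatase, had the widest range of the 4 phosphatases. It read 165, 172 and 220 CPM in DMSO, 51.6, 54.2 and 47.5 CPM in CH, and 4.42, 8.35 and 7.97 CPM in 2i. The 3 cultures formed separate steps, with no overlap between them. From CH to 2i Dusp4 fell 7.36-fold (log2 fold change -2.88, SE 0.239, adjusted p = 0.000111), and from DMSO to CH it fell 3.63-fold (-1.86, SE 0.222, adjusted p = 6.41e-05). Both steps together made 26.7-fold from DMSO to 2i (-4.74, adjusted p = 1.38e-07), the furthest of the 10 genes in that comparison. Esrrb null cells in CH held 106, 128 and 129 CPM and Esrrb floxed cells 38.6, 54.0 and 56.7 CPM. The null samples all lay above the floxed samples, a rise of 2.43-fold (log2 fold change 1.28, SE 0.138, adjusted p = 8.77e-05).

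Dusp6 (ENSMUSG00000019960, chr10:99263231-99267489, + strand), the cytoplasmic ERK phosphatase, was lower with the Mek inhibitor and was not called with CH. Samples held 90.0, 75.0 and 78.9 CPM in DMSO, 92.4, 81.9 and 80.9 CPM in CH, and 19.8, 26.9 and 26.4 CPM in 2i. DMSO and CH overlapped, whereas all 2i samples lay far below both. The fall from CH to 2i was 3.49-fold (log2 fold change -1.80, SE 0.141, adjusted p = 9.43e-05). Between CH and DMSO the log2 difference was 0.07, with a 95% interval from -0.23 to 0.36 (adjusted p = 0.733), so a change of the size of the minimum fold lies outside it. In Fgf2/Activin Dusp6 read 148, 114 and 116 CPM. All 3 lay above the DMSO samples, and the log2 difference of 0.63 was not called (adjusted p = 0.023). Esrrb null samples, at 70.6, 104 and 98.8 CPM, lay just above the 66.1, 69.0 and 68.4 CPM of Esrrb floxed samples, a log2 difference of 0.43 (adjusted p = 0.0183).

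Dusp5 (ENSMUSG00000034765, chr19:53529109-53542431, + strand), a nuclear phosphatase with specificity for ERK, was low in CH and 2i. It read 16.7, 13.1 and 12.4 CPM in DMSO, 3.44, 5.13 and 5.12 CPM in CH, and 2.40, 2.24 and 2.50 CPM in 2i, the last from 69 to 80 counts. None of these groups overlapped. Dusp5 fell 3.08-fold from DMSO to CH (log2 fold change -1.62, SE 0.179, adjusted p = 3.68e-05). The further step to 2i, -0.94 (SE 0.184, adjusted p = 0.011), missed both thresholds and passed them without CH replicate 1 (-1.11, adjusted p = 0.00349) and from replicates 2 and 3 alone (-1.11, adjusted p = 3.93e-05, edgeR). Without Esrrb in CH it held 24.5, 19.8 and 22.1 CPM, against 10.2, 10.4 and 10.5 CPM with it, a rise of 2.14-fold (1.10, SE 0.104, adjusted p = 4.33e-05). An annotated gene on the opposite strand, AC137853.2, covers 22.12% of the exon length of Dusp5. Neither this overlap nor that of Spry1 was resolved by the counts.

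Dusp1 (ENSMUSG00000024190, chr17:26505590-26562128, - strand), an immediate early phosphatase that acts on p38 and JNK as well as ERK, was called in none of the 7 comparisons. It ranged from 24.8 to 32.6 CPM in CH, from 30.1 to 46.7 CPM in 2i and from 28.2 to 40.6 CPM in DMSO, all overlapping. The log2 difference between 2i and CH was 0.33 (95% interval -0.14 to 0.80, adjusted p = 0.463). Esrrb null samples read 118, 75.1 and 75.8 CPM and Esrrb floxed samples 47.8, 53.0 and 53.1 CPM. The groups did not overlap, and the difference of 0.80 (SE 0.163, adjusted p = 0.00282) lay under the minimum fold.

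Set side by side, the responses of the 10 genes parted. The comparisons of 2i with CH and of CH with DMSO share the CH samples, so their values are given as they stand. Dusp6 and Spry4 were called with the Mek inhibitor (-1.80 and -2.63) and not with the Gsk3 inhibitor (0.07 and 0.68). With the Gsk3 inhibitor the interval of Spry4, -0.09 to 1.46, included the minimum fold, so an effect was not shown to be absent. That of Dusp6, -0.23 to 0.36, did not include it. Spry2 was called with the Gsk3 inhibitor (1.36) and not with the Mek inhibitor (-0.60), and likewise Dusp5 (-1.62 and -0.94) and Spred3 (-1.89 and -1.49). Dusp4 was called lower in both (-2.88 and -1.86). For each of Spry2, Spred3 and Dusp5 the Mek inhibitor's own effect was thus not shown to be absent, since the intervals of -0.91 to -0.28, -2.45 to -0.54 and -1.34 to -0.53 all lie below 0. These calls are from fits without a term for the replicate number. With it as a block, Spred3 was called with the Mek inhibitor too (-1.55, adjusted p = 0.000341, edgeR). Spry1 was then called with the Gsk3 inhibitor (-1.01, adjusted p = 6.31e-05, edgeR). Whether the Mek inhibitor acts the same without CHIR99021 could not be tested with these groups.

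The 4 genes called between CH and DMSO were all called in the opposite direction after Esrrb loss, in other cells. Of all 2397 genes called between CH and DMSO and tested after Esrrb loss, 30.7% were called in the opposite direction, and whether the 4 differ from that share was not tested. Spry2 rose with CH and fell without Esrrb, while Spred3, Dusp4 and Dusp5 fell with CH and rose without Esrrb. The log2 values were 1.36 and -1.15 for Spry2, -1.89 and 1.58 for Spred3, -1.86 and 1.28 for Dusp4 and -1.62 and 1.10 for Dusp5. The fifth gene called after Esrrb loss, Spry4, was not called between CH and DMSO. All 10 genes were separated without overlap between Esrrb null and Esrrb floxed samples, where 65.9% of all genes tested were. The groups did not overlap for 7 genes between 2i and CH (25.8% of all genes) and for 6 between CH and DMSO (49.7%). By the adjusted p alone, 8 of the 10 passed after Esrrb loss, where 44.5% of genes did. Esrrb itself was higher in CH than in DMSO by 4.37 (SE 0.514, adjusted p = 5.81e-05) and differed by 0.78 between 2i and CH (adjusted p = 0.396). The 2 experiments differ in line, passage and culture time, and their effects cannot be compared in size.

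In Fgf2/Activin, which adds a ligand that activates ERK, none of the 10 genes was called against DMSO, where 1.25% of genes tested were, and DESeq2 also called 0. At an unadjusted p below 0.05 edgeR had 2 of the 10 genes and 16.9% of all genes tested. They were Spred1 at -0.60 and Dusp6 at 0.63, of which Spred1 passed the adjusted p without a minimum fold (0.00551, where 1.8% of genes passed). With the replicate number as a block, Dusp6 passed the adjusted p too (0.63, adjusted p = 0.00694, edgeR), under the minimum fold. Against Fgf2/Activin, 2i was lower for 6 genes (14.4% of genes tested were lower), Spry1, Spry4, Spred3, Dusp4, Dusp5 and Dusp6. Their log2 fold changes ran from -1.57 for Spry1 to -4.39 for Dusp4. The same 6 were lower in 2i than in DMSO (14%), from -1.44 for Spry1 to -4.74 for Dusp4, and these comparisons share the 2i samples. The call for Spry1 between 2i and DMSO was lost without 2i replicate 2 (-1.36, adjusted p = 0.0154) or 2i replicate 3 (-1.38, adjusted p = 0.0152), and that for Spry4 with the 6 samples alone (-1.96, adjusted p = 0.0144). CH stood above Fgf2/Activin for Spry2 (1.43) and Spred1 (1.27), where 7.9% of genes were higher. It stood below for Spry1 (-1.19), Spred3 (-1.57), Dusp4 (-1.51) and Dusp5 (-1.56), where 10.3% were lower. The calls for Spry1 and Spred3 in that comparison, with adjusted p of 0.00972 and 0.0097, were each lost in 5 of the 6 fits that left out 1 sample. Spry1 also lost its call from replicates 2 and 3 alone (-0.95, adjusted p = 5.12e-08), under the minimum fold. Spry1 kept its call in the fit without Fgf2/Activin replicate 3, and Spred3 in that without Fgf2/Activin replicate 1.

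In the order of levels over the 4 wild-type cultures, 2i was the lowest for 6 genes, Spry1, Spry4, Spred3, Dusp4, Dusp5 and Dusp6. For Spry1 the lowest neighbours, CH and 2i, overlapped, as did the highest, Fgf2/Activin and DMSO. Dusp4, Dusp5 and Spred3 shared 1 order, DMSO, Fgf2/Activin, CH, 2i, in which DMSO and Fgf2/Activin overlapped for each. Spry2 ran CH, 2i, DMSO, Fgf2/Activin, and its last neighbours overlapped. Spry4 ran CH, Fgf2/Activin, DMSO, 2i, of which only the last step was called. Spred1 and Spred2 shared the order CH, 2i, DMSO, Fgf2/Activin with no neighbours called, and Dusp1 had no neighbours called either. Dusp6 ran Fgf2/Activin, CH, DMSO, 2i, and the step from DMSO to 2i was called (-1.74, adjusted p = 2.48e-06). Per length, as RPKM, CPM divided by the exon length in kilobases, Dusp4 was the most abundant of the 10 in DMSO with a mean of 67.8 ± 11.1 (SD, n = 3), before Dusp6 with 25.95 ± 2.48. In 2i Dusp4 had a mean of 2.52 ± 0.79 RPKM, and the most abundant was Spry2 with 31.4 ± 2.74, before Spred2 with 16.6 ± 1.88. Spred3 had the lowest mean in both, with 4.4 ± 1.80 and 0.417 ± 0.196 RPKM. In DMSO Spry4, with 4.63 ± 2.01 RPKM, lay within that spread.

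The rest of the pathway was read from lists. Of 27 receptors, adaptors and kinases of the cascade, 0 were called between 2i and CH in edgeR, with a median log2 fold change of 0.05. Of 8 Fgf ligands tested, Fgf4, the main autocrine Fgf of ES cells, was higher in 2i than in CH (159 ± 7.71 against 62.1 ± 12.9 CPM, SD, n = 3, log2 fold change 1.36, adjusted p = 0.000629). Fgf8 was lower (0.188 ± 0.0428 against 5.83 ± 3.72 CPM, -4.92, adjusted p = 0.00121). Of 24 other negative regulators tested, 1 was called lower, the nuclear phosphatase Dusp2, with 14 to 23 counts in CH samples and 1 to 2 in 2i samples. Of 17 ETS and other transcriptional targets of ERK, Egr1 and Egr2, immediate early zinc finger factors, were lower. Egr1 held 135 to 162 CPM in CH and 0.875 to 1.74 CPM in 2i (-6.93, adjusted p = 9.75e-07). The median of these targets was -0.84 and that of the feedback genes -0.77, with all genes tested at 0.

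**Figure D3:**
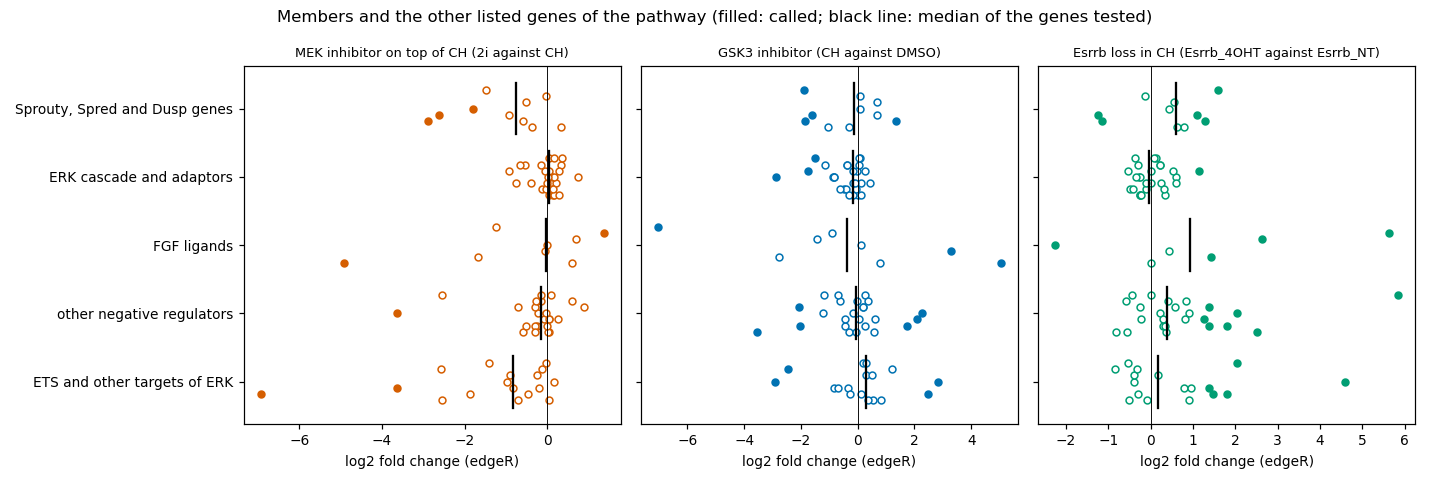
Log2 fold change (x axes) of the 10 feedback genes and of the listed genes of 4 other groups of the pathway (y axis), 1 point per gene tested, in 3 comparisons, with filled points for called genes and a black line at each group's median. Between 2i and CH the medians were -0.77 for the feedback genes, 0.05 for the cascade and -0.84 for the transcriptional targets.

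With CH against DMSO, 3 of 27 cascade genes were lower, the receptors Fgfr2 (-2.86) and Fgfr3 (-1.74) and the scaffold Ksr2 (-1.50). Among ligands, Fgf5, a marker of primed epiblast, was lower (-7.03, adjusted p = 4.18e-06), while Fgf8 (5.04) and Fgf17 (3.28) were higher. Of the 24 genes listed as other negative regulators 3 were higher and 3 lower. The furthest were the phosphatase Dusp9 (-3.53, adjusted p = 1.05e-06, edgeR), the Sef protein gene Il17rd (2.25) and Flrt3 (2.09). Flrt3, counted among the 3 higher, is not an established inhibitor of ERK. Of the 17 targets 2 were higher and 2 lower, with Fosl2 at -2.92, Elk3 at 2.83 and Egr1 at 2.49. After Esrrb loss 1 of 26 cascade genes tested was higher, the Ras activator Sos2 (1.15). Of 6 Fgf ligands tested 3 were higher, Fgf8 (5.62), Fgf5 (2.62) and Fgf17 (1.43), and 1 was lower, Fgf4 (-2.25, adjusted p = 1.15e-06). Of the other negative regulators 7 of 24 were higher and 0 lower, led by the phosphatases Dusp8 (5.84, 115 to 143 counts against 1 to 4), Dusp9 (2.51) and Dusp2 (2.05). Of the targets 5 of 17 were higher, with Fosl2 at 4.58, Junb at 2.04 and Phlda1 at 1.80. The lists' medians after Esrrb loss were 0.38 for the other regulators and 0.18 for the targets.

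The genes with the pattern most like each gene called with the Mek inhibitor were sought among the 11034 others that averaged 100 counts or more. Likeness was the root-mean-square difference of 6 group means of log2(CPM + 1), the wild-type and the Esrrb fl/fl means each centred on their own mean. Nearest to Spry4 were Etv4, an ETS factor (0.198), Hs6st2 (0.442) and Tcf15 (0.448), over a range of 2.54 in Spry4 itself. Etv4 read 125 ± 43.8 CPM in CH and 21.0 ± 12.0 CPM in 2i (SD, n = 3), a log2 difference of -2.57 that did not pass (adjusted p = 0.011, edgeR). Nearest to Dusp4, whose range was 4.59, were Fndc3c1 (0.247), Rnf128 (0.45) and Aff3 (0.46). Nearest to Dusp6, whose range was 2.33, were Sox11 (0.221), Pdpn (0.225) and Ccdc36 (0.23). These distances describe 6 values each and carry no test.

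Other signals moved with these comparisons, and their part in the results was not tested. Of the 6 ES cell markers 4 were called higher and 1 lower in CH than in DMSO, and likewise in 2i than in DMSO. Between 2i and CH 0 were called. After Esrrb loss 0 were higher and 1 lower, with a median log2 fold change of -0.74. Nanog held 2543, 189 and 72 counts in the DMSO samples. The summed level of 6 mesendoderm markers was 443 to 674 CPM in CH, 84.5 to 120 CPM in 2i and 9.02 to 15 CPM in DMSO. It was 372 to 520 CPM in Esrrb null and 53.6 to 76.9 CPM in Esrrb floxed samples. None of the 6 was at 0 in any group, though Gsc and Mesp1 had 8 counts or fewer per sample. Most of the sum in CH, 2i and Esrrb fl/fl samples was T, with means of 534 CPM in CH, 91.0 in 2i and 0.468 in DMSO. Eomes went the other way, from 11.45 CPM in DMSO to 2.71 CPM in CH. Of 4 mesendoderm markers tested between CH and DMSO 2 were higher and 1 lower. The 4 neural markers summed to 70.2 to 90.1 CPM in DMSO, 17.9 to 27.6 CPM in CH and 8.92 to 10.8 CPM in 2i. They summed to 206 to 210 CPM in Esrrb null and 24.4 to 37.8 CPM in Esrrb floxed samples, and all were detected in each group. The 7 trophectoderm markers summed to 77.2 to 121 CPM in CH, 39.6 to 42.7 CPM in 2i and 22.9 to 31.9 CPM in DMSO, and to at most 52.9 CPM in Esrrb fl/fl cells. Its members did not move together, since of 4 tested between CH and DMSO 2 were higher, Cdx2 (9.49) and Tfap2a (4.21), and 1 lower, Eomes (-2.08). The 8 primitive endoderm markers summed to 9.77 to 11.4 CPM in DMSO, 3.48 to 4.53 CPM in CH and 1.95 to 2.31 CPM in 2i, and were 7.4 to 10.1 CPM in Esrrb null against 3.12 to 4.86 CPM in Esrrb floxed samples. The 5 fibroblast markers summed to 16.6 to 49.3 CPM in DMSO, 5.6 to 7.62 CPM in CH and 2.26 to 2.6 CPM in 2i, with Postn at 0 in 4 groups, and to 8.08 to 11.1 CPM in Esrrb null against 18.3 to 26.4 CPM in Esrrb floxed samples. The neural, primitive endoderm and fibroblast sums thus fell in the order DMSO, CH, 2i without overlap, the order of these cultures for Dusp4, Dusp5 and Spred3. In DMSO 1 gene made up most of each sum, Nes (mean 74.9 CPM), Dab2 (5.61 CPM) and Thy1 (27.2 CPM). Of 8 primitive endoderm markers tested between CH and DMSO 1 was higher and 3 lower. After Esrrb loss 2 of 5 tested were higher and 1 lower. Of the fibroblast markers, Thy1 fell there from 22.65 to 6.255 CPM while Col1a2 rose from 0.2074 to 2.745 CPM. In bulk RNA fewer cells of a type and less RNA per cell cannot be told apart. Cells were freed from the gel with warm enzymes, and 15 genes known to respond to such treatment, Egr1 and Junb among them, summed to 516 to 522 CPM in CH and 298 to 340 CPM in 2i. In Esrrb null samples they summed to 671 to 955 CPM against 563 to 602 CPM in Esrrb floxed samples, with 9 of 14 tested higher. Between 2i and CH 1 of these 15 was called, Egr1, which is also in the list of ERK targets. Its mean was 152 CPM in CH and 1.26 CPM in 2i, a large part of the gap between these sums. Between CH and DMSO 1 of the 15 was higher and 1 lower.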

How the data were processed

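Per the labels and the study's methods, poly(A) libraries were sequenced on a NextSeq, and the authors used TopHat2 for alignment to mm10 and HTSeq, without strand, for counting on the GRCm38 genes of Ensembl, and deposited whole-number counts. The Ensembl release is not given in the sources used here. Names and positions came from GENCODE for GRCm38 (49412 of 49671 identifiers).

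Counts were scaled by TMM, filtered with filterByExpr and tested with glmQLFit and glmQLFTest of edgeR 4.0.16 (limma 3.58.1, R 4.3.3), the 12 wild-type and 6 Esrrb fl/fl samples in separate fits. All 10 genes passed the filter in both. Calls needed a log2 fold change beyond 1 in either direction at an adjusted p under 0.01. Depth gave each of the 10 genes 34 counts or more in every sample.

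The genes, lists and tests were chosen with earlier results of these data known. Genes named besides the 10 were those of the lists called between 2i and CH, the 3 of each list with the largest change among those called in CH against DMSO and after Esrrb loss, 3 of like pattern for each of the 10 called with the Mek inhibitor, and Esrrb and Axin2 as checks.

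Alternatives were DESeq2 1.42.0 (size factors or test), no count filter, no minimum fold, the samples compared alone, each sample left out, the replicate number as a block and, added after seeing the data, replicates 2 and 3 alone. The labels number replicates 1 to 3 in each group. Over 11044 genes, deviations from the group mean correlated between same-numbered samples by at least 0.359 in every comparison, so the numbers were taken to pair the samples. Between other samples the average was -0.175 to -0.285. Deviations from the mean of 3 samples cancel, so this negative average follows from the positive one and adds nothing. The main fits held no term for the replicate number, and the block was an alternative. Promoter windows on chromosome 18, which holds Spry4, were left out of the motif search and of the motif shares.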

Additional observations from a re-analysis of the deposited data

How the results depend on the processing

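Of 830 values of single genes under the alternatives, 790 kept their direction and their side of the thresholds, 21 lost a call, 7 gained one and 12 changed sign. Leaving out 1 sample gave 3 to 4 genes called between 2i and CH, 3 to 4 between CH and DMSO, 5 to 6 between 2i and DMSO, 6 between 2i and Fgf2/Activin, 4 to 5 between CH and Fgf2/Activin, 5 after Esrrb loss and 0 between Fgf2/Activin and DMSO. Without a minimum fold, 1 gene (Spred1) was called between Fgf2/Activin and DMSO and 8 after Esrrb loss.

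The values that changed sign were all of differences that were not called, in fits without 1 sample or without replicate 1 of every group, and the cause was not tested. Their lowest and highest values without 1 sample were -0.13 and 0.06 for Spred2 between 2i and CH, -0.20 and 0.16 for Dusp1 between 2i and DMSO and -0.39 and 0.05 for Dusp1 between 2i and Fgf2/Activin. Between Fgf2/Activin and DMSO they were -0.14 and 0.08 for Dusp5, -0.23 and 0.05 for Spry2 and -0.26 and 0.52 for Spry1. Replicates 2 and 3 alone, an alternative added after seeing the data, gave -0.07 for Dusp1 between 2i and DMSO and 0.06 for Dusp5 between Fgf2/Activin and DMSO. They called 5 genes between 2i and CH (Spred3 and Dusp5 gained) and 4 after Esrrb loss (Spry2 lost).

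With the replicate block, 4 genes were called between 2i and CH (Spred3 gained) and 5 between CH and DMSO (Spry1 gained). The block changed no other call. Spry1 between CH and Fgf2/Activin also lost its call with the 6 samples alone (adjusted p = 0.0131, edgeR). Between 2i and CH the SE was largest for Spred3 (0.432) and Spry4 (0.377). Few reads did not always go with a large SE, since Dusp5, with 69 to 80 counts in 2i, had 0.184.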
